A study of Mus musculus with 2 samples.

Results

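Mir26a-1, Mir26a-2 and Mir26b are the mouse genes of the miR-26 family. They were taken by symbol from the count tables of newborn thymus, 3 of 1973 counted miRNA genes, and all 3 reached 10 counts in each library, as did 294 genes in all (called detected here). The study sequenced small RNA (under 30 nucleotides) from total RNA of whole thymus, both lobes per animal, of newborn mice of the strain B6NCrl (postnatal day 0). There was 1 group of 2 libraries, with no treatment or genotype contrast. Replicate 1 came from pup 2 and replicate 2 from pup 3 of 1 litter, though 1 donor identifier is recorded for both and sex was not collected. Values between the libraries therefore describe the spread between these samples, which may be technical, and not an effect of a condition.

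MicroRNAs are cut from hairpin transcripts by Drosha and Dicer, and the strand loaded into an Argonaute protein pairs with messenger RNAs mainly through its seed, bases 2 to 8. The miR-26 family restrains proliferation, with the chromatin methyltransferase gene Ezh2 among its known targets, and MYC is known to repress it. Each Mir26 gene sits in an intron of a gene for a small CTD phosphatase, Ctdspl, Ctdsp2 or Ctdsp1, proteins that dephosphorylate the tail of RNA polymerase II and act beside miR-26 in the control of the cell cycle. The host messenger RNAs are too long for this assay and were not measured.

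The mature sequences, from RefSeq on build GRCm38.p6, are shown because they decide which reads could be counted at which gene. Capitals mark the seed.
mmu-miR-26a-5p: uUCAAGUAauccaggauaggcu
mmu-miR-26b-5p: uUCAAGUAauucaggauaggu
mmu-miR-26a-1-3p: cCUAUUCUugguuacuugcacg
mmu-miR-26a-2-3p: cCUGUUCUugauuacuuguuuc
mmu-miR-26b-3p: cCUGUUCUccauuacuuggcuc

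Both 5p sequences carry the seed UCAAGUA, and no other mature miRNA among the 1738 entries of the RefSeq table used carried it. Counted from 1 at the 5′ end, with the base of miR-26a-5p first, they differ by C11U and C21U, both outside the seed, and miR-26b-5p is 21 bases long against 22. The sequence of miR-26a-5p is the same at Mir26a-1 and Mir26a-2, and it occurred in 2 of 1005 RefSeq hairpins, whereas miR-26b-5p and each 3p sequence occurred in 1. In the 141767 transcripts of GENCODE M21, miR-26a-5p was found in both Mir26a genes and miR-26b-5p in Mir26b alone, and neither was found as its reverse complement. The opposite arms are less alike. The 3p arms of Mir26a-1 and Mir26a-2 differ at 6 of 22 positions, those of Mir26a-2 and Mir26b at 4, and Mir26a-2 and Mir26b share a 3p seed that Mir26a-1 lacks.

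The hairpins are shown to place the shared stretch, with the 5p mature sequence in capitals.
Mir26a-1: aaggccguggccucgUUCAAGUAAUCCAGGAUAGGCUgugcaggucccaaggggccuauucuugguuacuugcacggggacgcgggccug
Mir26a-2: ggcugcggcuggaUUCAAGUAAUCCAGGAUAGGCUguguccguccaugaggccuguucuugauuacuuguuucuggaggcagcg
Mir26b: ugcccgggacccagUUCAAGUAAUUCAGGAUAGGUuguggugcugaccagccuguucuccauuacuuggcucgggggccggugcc

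The 2 Mir26a hairpins share a run of 25 bases, UUCAAGUAAUCCAGGAUAGGCUgug, made of the mature sequence and the 3 bases after it. The base just before the mature sequence is where they part, so a read of miR-26a-5p extended by up to 3 templated bases at its 3′ end matches both loci. Mir26b shares no run longer than 11 bases with Mir26a-1 and 10 with Mir26a-2. Over the whole hairpins, aligned identity was 72.5% between Mir26a-1 and Mir26a-2, 68.5% between Mir26a-1 and Mir26b, and 66.3% between Mir26a-2 and Mir26b. Predicted folding energies were alike, at -49.4 kcal/mol for Mir26a-1, -44.5 for Mir26a-2 and -43.5 for Mir26b, each below the median of -32 over the RefSeq hairpins.

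Mir26a-1 (ENSMUSG00000065513.1, plus strand, chr9:119031796-119031885, GRCm38) lies in intron 5 of 7 of the longest coding Ctdspl transcript, an intron of 3283 bases, 1543 bases after the upstream exon. Mir26a-2 (ENSMUSG00000065430.1, plus strand, chr10:126995530-126995613) lies in intron 5 of 7 of a coding Ctdsp2 transcript, an intron of 1946 bases, 241 bases before the next exon. Mir26b (ENSMUSG00000065468.1, plus strand, chr1:74394310-74394394) lies in intron 4 of 6 of a coding Ctdsp1 transcript, an intron of 564 bases, 234 bases after the upstream exon. All 3 are on the strand of their host and overlap no other annotated gene. The distance from the start of the host transcript differs widely, 105343 bases for Mir26a-1, 16813 for Mir26a-2 and 2801 for Mir26b. For Ctdsp2, RefSeq lists a further start whose surrounding window, chr10:126995363-126995662, contains Mir26a-2. The nearest other counted miRNA gene was 1032 kb from Mir26a-1 (Gm22008, 0 counts in both libraries), 2.83 kb from Mir26a-2 (Mir546, 1 and 0 counts) and 188 kb from Mir26b (Mir1928, 0 in both).

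**Figure D1:**
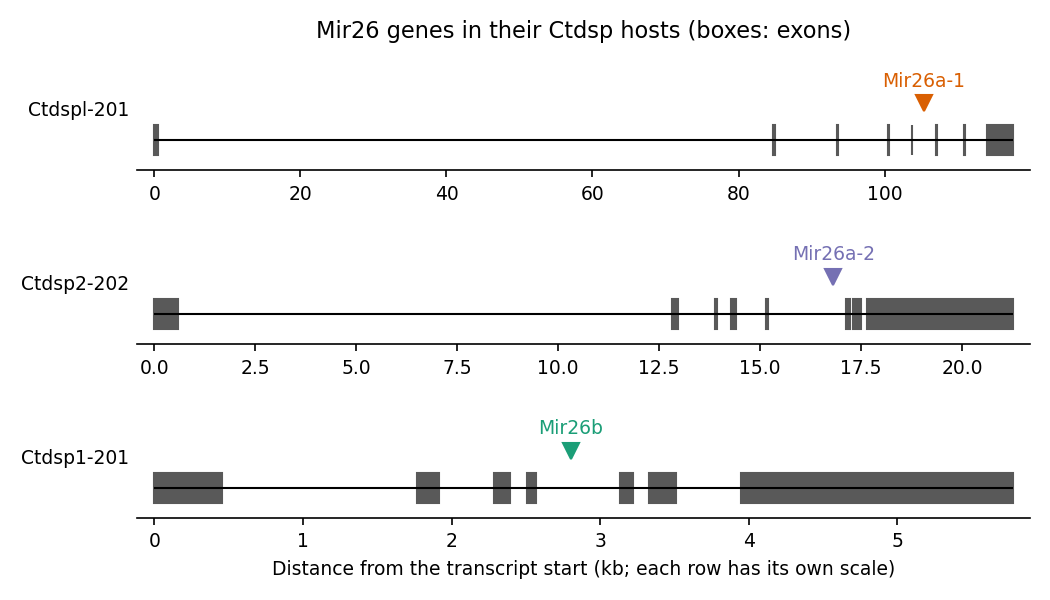
Position of each Mir26 gene (triangle) along a protein-coding transcript of its host, in kb from the transcript start, with exons as boxes; each row has its own scale. Mir26b lies 2801 bases from the start of its host transcript and Mir26a-1 105343 bases.

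The tables count 2734133 reads of replicate 1 and 1289151 of replicate 2 on the strand of a miRNA gene, a depth 2.12 times greater in replicate 1. Levels are given as counts per 1000000 of these reads (CPM). Multimapping reads, 56.3% and 57.5% of all reads in the tables, were tallied apart and belong to no gene. Markers of the labelled tissue were present, with the thymocyte miRNA gene Mir181a-1 at 36632 CPM ± 832 (SD, n = 2) and the epithelial Mir205 at 9875 ± 749. The liver gene Mir122 had 99.1 ± 29.9 and the skeletal muscle gene Mir206 444 ± 2.09. The other T lineage markers checked were lower than Mir181a-1, with Mir155 at 3513 ± 394 and Mir150 at 2093 ± 339. Mir181b-1, also a T lineage marker, had 109 ± 33.3, near the level of Mir122. The neuronal Mir124a-1, Mir124a-2 and Mir124a-3 had 0 counts in both libraries, but they are copies of each other and would lose multimapping reads. Mir181b-1 shares miR-181b-5p with Mir181b-2, so its count can lose such reads too.

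Mir26b was among the most abundant counted miRNA genes of the newborn thymus, while Mir26a-2 lay in the lower part of the detected range and Mir26a-1 near its bottom. Mir26b had 179574 counts in replicate 1 and 70003 in replicate 2, or 65679 and 54302 CPM, a mean of 59990 ± 8045 (SD, n = 2). It took 6.57% of the counts in replicate 1 (95% Wilson interval 6.54 to 6.60) and 5.43% in replicate 2 (5.39 to 5.47). It was at rank 2 in replicate 1 and rank 3 in replicate 2. These intervals cover counting error only, since reads without molecular identifiers are not independent molecules.

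Mir26a-2 had 235 and 80 counts, or 85.95 CPM in replicate 1 (95% Wilson interval 75.6 to 97.7) and 62.1 in replicate 2 (49.9 to 77.2), a mean of 74.0 ± 16.9. It ranked 193 of the 294 detected genes. Mir26a-1 had 42 and 18 counts, or 15.4 CPM (11.4 to 20.8) and 13.96 (8.83 to 22.1), a mean of 14.7 ± 0.989, at rank 265. Replicate 1 was the higher library for each of the 3 genes, but the intervals of Mir26a-1 and of Mir26a-2 overlapped between the libraries and those of Mir26b did not. The levels of the 3 genes did not overlap with each other in either library. All counts of the 3 genes lay on the gene strand, with 0 on the opposite strand in both libraries, where a count of 0 allows up to 3.

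**Figure D2:**
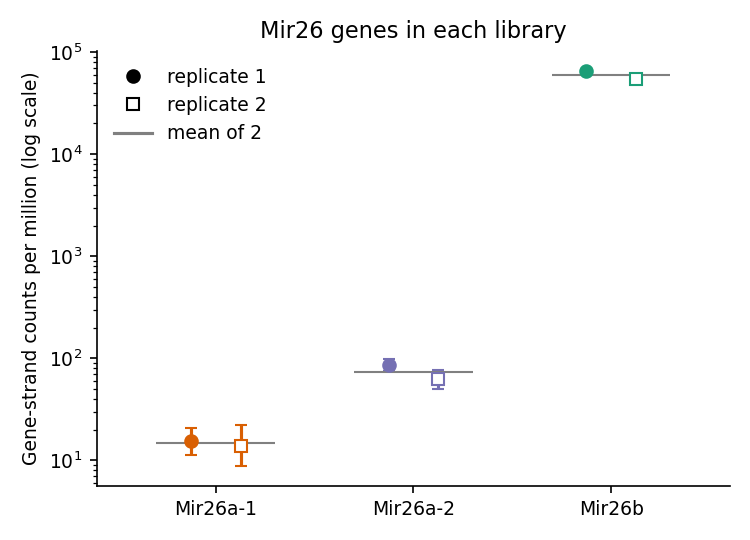
CPM on the gene strand (log axis) of the 3 Mir26 genes in each library, with 95% Wilson intervals from counting error and the mean of the 2 libraries as a line. Mir26b sits near 59990, Mir26a-2 near 74.0 and Mir26a-1 near 14.7.

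Mir26b therefore supplied nearly all counted reads of the family. It gave 99.8% of them in replicate 1 and 99.9% in replicate 2, and the Mir26a genes together gave 0.154% and 0.140%. The 3 genes together took 6.58% of all counts in replicate 1 and 5.44% in replicate 2, a mean of 6.01% ± 0.806. Counts of Mir26b were 764 times those of Mir26a-2 in replicate 1 (exact 95% binomial interval 672 to 872) and 875 times in replicate 2 (703 to 1104). They were 4276 times those of Mir26a-1 in replicate 1 (3163 to 5933) and 3889 times in replicate 2 (2461 to 6562). In each of these ratios the intervals of the libraries overlapped. Hairpin lengths, 90, 84 and 85 bases in the order Mir26a-1, Mir26a-2, Mir26b, barely bear on this: per base, Mir26b exceeded Mir26a-2 by 755 and 865 times.

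These ratios compare counted reads and do not rank the mature miRNAs. Reads of miR-26a-5p that match both loci would fall among the multimapping reads, which numbered 5993141 in replicate 1 and 2813125 in replicate 2, or 33.4 and 40.2 times the counts of Mir26b. How many of them are miR-26a-5p cannot be read from the tables, nor which arm gave the counts at any Mir26 gene. The counts of Mir26a-1 and Mir26a-2 are uncertain for that reason. Between them, Mir26a-2 had 5.60 times the counts of Mir26a-1 in replicate 1 (4.02 to 7.97) and 4.44 times in replicate 2 (2.64 to 7.88).

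**Figure D3:**
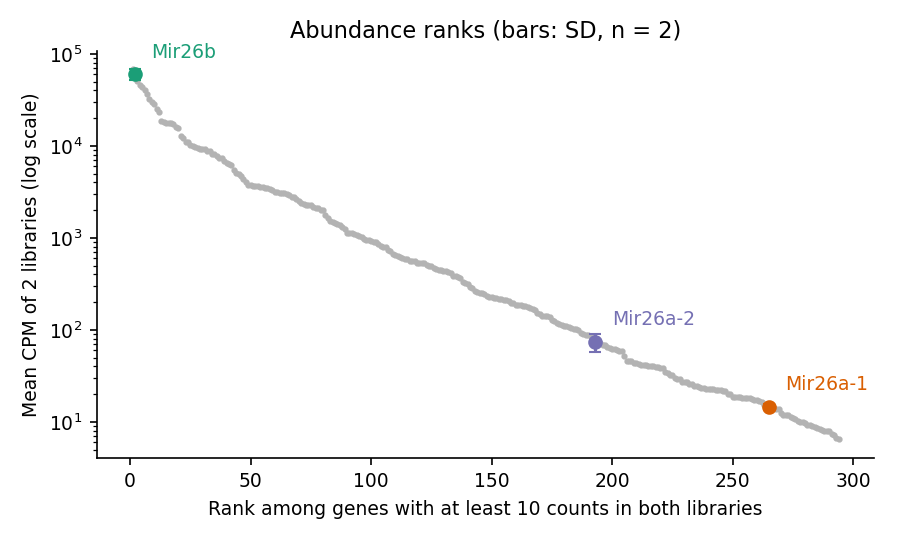
Mean CPM of the 2 libraries (log axis) against rank for the 294 detected genes, with the Mir26 genes coloured and SD bars (n = 2). Mir26b is at the top left, Mir26a-2 at rank 193 and Mir26a-1 at rank 265.

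Other miRNA genes with a mature sequence repeated elsewhere were set beside the Mir26a genes. RefSeq sequences matched 257 of the 294 detected genes by symbol. Among these genes and the undetected ones with a sequence, 83 shared a whole mature sequence with another locus and 786 did not. Of the 83, 35 were detected (42.2%), with a median of 115 CPM, and of the 786, 222 were (28.2%), with a median of 255 CPM. The shared genes took 9.98% of all counts and the others 78.5%.

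Among the genes with a matched sequence, there were 19 sets with the same mature sequence and at least 1 detected copy. Of the 1005 RefSeq hairpins, 136 were not matched to a counted gene, so further sets can be missing or lack a copy. Within the matched sets, the miR-26a-5p set, at 88.7 CPM summed over its copies, ranked 12. These sets split widely: 5 exceeded 1000 CPM, the lowest of them at 9584, and the other 14 reached at most 541. The 4 highest sets were miR-181a-5p, led by Mir181a-1, which tunes T cell receptor signalling, miR-16-5p, led by Mir16-1 of the cell cycle at 17585 CPM ± 981, miR-128-3p, led by Mir128-1 at 12775 ± 2913, and miR-92a-3p, led by Mir92-1 of the miR-17-92 cluster. The counted levels of these sets differed widely, and the Mir26a genes lay with the low sets. Reads that match all copies of a set are not in these counts, and which arm gave the counted reads is not known. The levels are therefore not those of the shared mature sequences, and what sharing does to a count was not tested. In 12 of the 19 sets, miR-26a-5p among them, the leading copy held over 80% of the set's counts; Mir26a-2 held 83.5%. The miR-26a-5p copies share 3 bases after the mature sequence and 0 before it, the miR-181a-5p copies 4 after and 1 before. No copy in any of these sets reached the level of Mir26b.

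**Figure D4:**
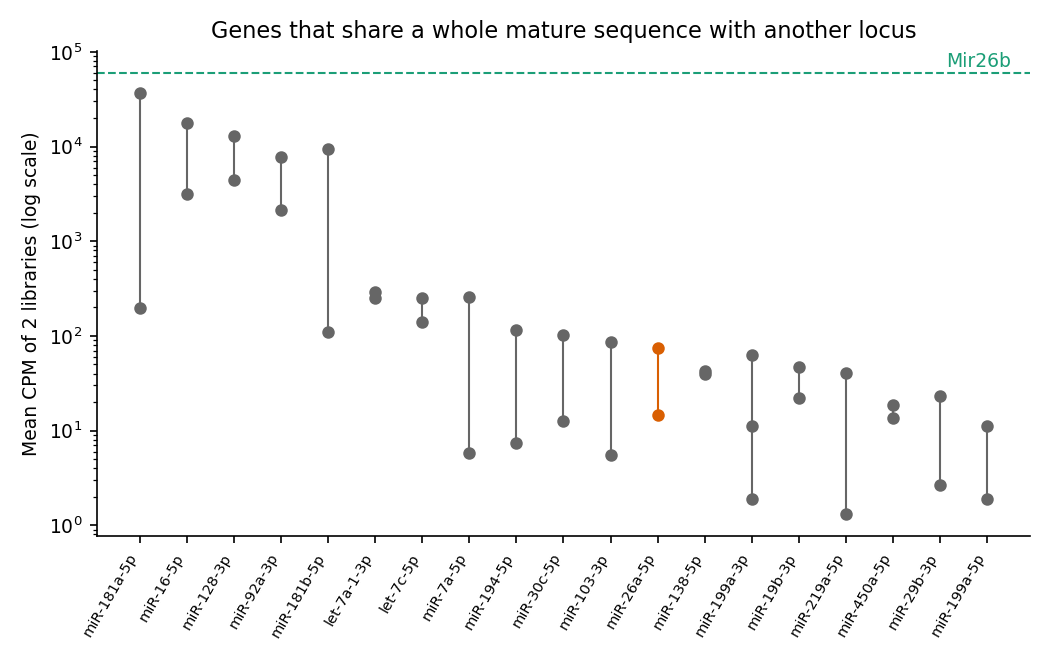
Mean CPM of the 2 libraries (log axis) for each gene in the 19 sets that share a whole mature sequence, among genes with a matched RefSeq sequence. Points joined by a line are copies of 1 set, miR-26a-5p is orange and the dashed line is Mir26b. The miR-26a-5p copies, at 74.0 and 14.7 CPM, lie among the 14 low sets.

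In the order of levels, Mir26b stood between Mirlet7g, a let-7 gene of differentiating cells, and Mir143, a gene of smooth muscle. Mirlet7g had 74046 and 61586 CPM, above the 65679 and 54302 of Mir26b in the same libraries. The gap between their means was less than the SD of either. Both genes were lower in replicate 2, however, so that SD does not measure the spread of their order within a library. Mir143 had 42989 and 57301 CPM, so its order with Mir26b turned between the libraries. By the distance in log2(CPM + 1) over the 2 libraries, the genes most like Mir26b were Mirlet7g at 0.25, Mir17 at 0.55 and Mir143 at 0.62. Those most like Mir26a-2 were Mir190a at 0.12 (77.3 CPM ± 13.8), Mir701 at 0.25 (72.0 ± 4.20) and Mir103-2 at 0.33 (86.96 ± 27.5). Those most like Mir26a-1 were Mir412 at 0.19 (14.1 CPM ± 0.853), Mir1930 at 0.25 (16.5 ± 2.51) and Mir30c-2 at 0.30 (12.6 ± 1.34). The genes just above and below Mir26a-1 in mean level were Mir3102 at 15.1 ± 3.82 and Mir666 at 14.2 ± 6.18. Those next to Mir26a-2 were Mir190a and Mir701. The gaps between these means were less than the SDs, which again do not measure the spread of an order within a library. Mir190a, at 87.0 and 67.5 CPM, was above the 85.95 and 62.1 of Mir26a-2 in both libraries. The order of Mir26a-2 with Mir701, at 75.0 and 69.0, turned between the libraries. Over 2 libraries the likeness by distance amounts to a like level and a like ratio.

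Between the littermates, Mir26b and Mir26a-2 were lower in replicate 2 beyond counting error. The log2 ratio (replicate 2 over replicate 1) of Mir26b was -0.34, with an exact 95% interval from -0.35 to -0.33, and its adjusted p in the exact binomial test was too small for double precision. Mir26a-2 had a log2 ratio of -0.54 (-0.92 to -0.16), with an adjusted exact binomial p of 0.0106, which ran from 0.0108 to 0.0278 under the other scalings and filters. Mir26a-1 had a log2 ratio of -0.20 (-1.09 to 0.62) and did not pass (adjusted exact binomial p = 0.786). At its depth of 42 and 18 counts, a difference of the size seen in Mir26b was not detectable.

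The same test called 128 of the 294 genes, 43.5%, and 69 of them, 23.5%, were lower in replicate 2. Scaled to total assigned counts instead of TMM, 72 genes were higher and 52 lower, against 59 and 69. All 3 log2 ratios of the Mir26 genes were below 0 under each of these scalings. The median absolute log2 ratio was 0.21, and 85 genes were farther from 0 than Mir26b and 41 farther than Mir26a-2. The test compares these libraries by counting error only. A negative binomial test in edgeR, with a biological coefficient of variation of 0.154 estimated from the same libraries, called 1 gene, 0.34% of those tested, and none of the Mir26 genes, with unadjusted exact p of 0.280 for Mir26b, 0.151 for Mir26a-2 and 0.757 for Mir26a-1. Its spread comes from the very difference being tested, with 1 library on each side, so it could call few genes and says nothing about whether the differences would recur.

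Replicate 1 was also the deeper library, and 3 miRNA genes of heart muscle had a higher level in replicate 2. Mir208b, in the cardiac myosin gene Myh7, had 21.9 and 184.6 CPM in replicates 1 and 2, Mir208a, in Myh6, had 2.19 and 81.4, and Mir499, in Myh7b, had 11.7 and 34.1. Mir206, of skeletal muscle, had 445 and 442. Mir133b, on the muscle list given next, was lower in replicate 2, with 6.95 and 3.10 CPM from 19 and 4 counts. Of 9 heart and skeletal muscle genes, a list added after the values were seen, 8 were counted, 3 had a higher CPM in replicate 2 and 3 had 0 counts in both libraries (Mir1a-1, Mir133a-1 and Mir133a-2). Multimapping reads belong to no gene, so these 0 counts do not show that the mature miRNAs of the 3 genes were absent. The 8 summed to 488 CPM in replicate 1 and 745 in replicate 2, against 65679 and 54302 for Mir26b alone. For the same reason, these sums may leave out muscle miRNAs. The part of depth and of muscle RNA in the ratios of the Mir26 genes was not tested.

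**Figure D5:**
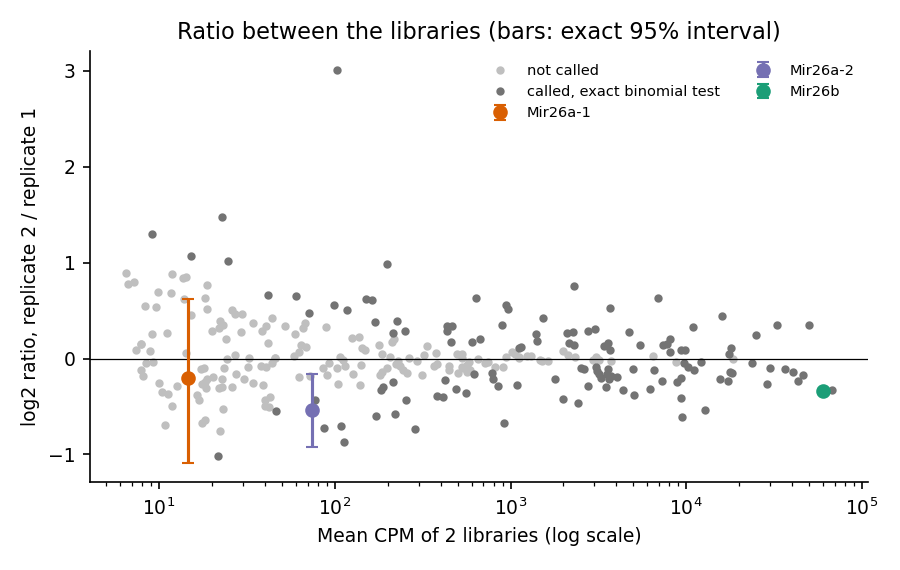
Log2 ratio of replicate 2 over replicate 1 (TMM scaled) against mean CPM (log axis) for 294 genes, with calls of the exact binomial test in dark grey and exact 95% intervals for the Mir26 genes. Mir26b at -0.34 and Mir26a-2 at -0.54 lie below 0 with their intervals, and the interval of Mir26a-1 spans 0.

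Among miRNA genes known to be repressed by MYC, Mir26b was the second most abundant after Mirlet7g. This list took 28.3% ± 1.47 of all counts, of which 21.2% came from the Mir26 genes. Mir30e, of the miR-30 family, followed with 43148 CPM ± 3468, and Mirlet7i with 24916 ± 3767. Of 31 listed genes, 29 were counted and 28 tested, with 6 higher in replicate 2, 15 lower and 7 not called, and a median log2 ratio of -0.22 against -0.03 over all 294 genes. The Mir26 genes are part of this list, and most of its let-7 genes were known to be lower when it was written, so the count is a description. Among the let-7 genes, Mirlet7i was higher in replicate 2 (log2 ratio 0.24) and Mirlet7c-1 was not called. Over all 294 genes, 43.5% were called and 23.5% were lower. These shares are not matched for level, and the binomial test called more of the genes with high counts. With at least 100 counts in each library, 6 of 24 listed genes were higher and 13 lower. Of all 191 genes at that depth, 115 were called, 59 higher and 56 lower. With total assigned counts, 13 listed genes were lower and the median was -0.15 against 0.04. The negative binomial test called 0 of the list.

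Of miRNA genes known to target Ezh2, the Polycomb methyltransferase, nearly all counted reads came from Mir26b. The list took 6.41% ± 0.803 of the counts, 93.8% of it from the Mir26 genes and 0.398% of all counts from the others. Mir101b had 3714 CPM ± 64.9 and Mir101a 189 ± 20.9. Mir138-2 had 43.0 CPM ± 7.00 and Mir138-1 39.3 ± 3.96, and both also share a mature sequence. Of 8 listed genes, 7 were counted and tested. Of these, 3 were lower in replicate 2 (Mir26b, Mir26a-2 and Mir101a, at -0.29) and 4 were not called. The share called was near the 43.5% of all genes, but all calls were in the lower direction, beside 23.5% of all genes lower. Mir26b and Mir26a-2 are themselves Mir26 genes, so the count is a description. The median log2 ratio was -0.29 against -0.03 over all genes. With DESeq2 size factors or total assigned counts, 2 were lower, and the negative binomial test called 0.

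Set beside 30 miRNA genes that lie within other coding genes on the same strand, Mir26b was below Mirlet7g, in Wdr82, and above the other 29. Mir30e, in Nfyc, Mir126a, an endothelial gene in Egfl7 with 32674 CPM ± 6540, and Mir93, in the replication gene Mcm7 with 29867 ± 466, came next. The 30 genes together took 27.2% ± 1.20 of the counts. Of 26 tested, 4 were higher in replicate 2, 13 lower and 9 not called, beside 43.5% of all genes called and 23.5% lower. The median log2 ratio was -0.09 against -0.03 over all genes, or -0.02 against 0.04 with total assigned counts. The negative binomial test called 1 of them, Mir208b. The shares called are not matched for level, and the binomial test called more of the genes with high counts. With at least 100 counts in each library, 2 of 21 listed genes were higher and 11 lower. Of all 191 genes at that depth, 115 were called, 59 higher and 56 lower. Pank genes, a family with a miRNA in each of 3 members, gave a like arrangement: Mir103-1 (Pank3) and Mir103-2 (Pank2) share miR-103-3p and had 5.48 CPM ± 1.03 and 86.96 ± 27.5, and Mir107 (Pank1) had 799 ± 58.2. These Pank genes were chosen as an example after their values were seen. Mir107 stood 9.19 times above Mir103-2, against 811 times for Mir26b over Mir26a-2, as ratios of mean CPM.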

How the data were processed

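The authors deposited unnormalized read counts for each miRNA gene in a table per library, mapped to mm10 and counted over GENCODE M4 per the deposited text files beside them. Which aligner and counter were used is not given in the sources used here. The 3 count columns have no names. From the values, they are reads on both strands, the gene strand and the opposite strand, and the gene strand was used. Rows of unmapped, multimapping, unassigned (2.99% and 2.57%) and ambiguous reads were left out of library sizes. Symbols, coordinates and introns are from GENCODE M21, which matched 1894 of 1973 identifiers, and sequences from RefSeq (GRCm38.p6).

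CPM is the count over the library's gene-strand total. Genes reaching 10 counts in each library entered a two-sided exact binomial test of replicate 2 against replicate 1, given TMM library sizes (edgeR 4.0.16, R 4.3.3), with Benjamini-Hochberg adjustment at 0.05 over 294 genes (scipy 1.17.1). The binomial test was also run on 297 genes simulated for this comparison with counting error only. There it was given the library sizes used to simulate, without TMM, so the scaling step was not covered. It called 36 of 47 genes changed 1.5-fold, 40 of 44 changed 2-fold, 39 of 39 changed 4-fold and 4 of 167 unchanged genes. edgeR's quasi-likelihood test needs a contrast between groups, which 1 group does not have. Folding used RNAfold 2.7.2 and alignments Biopython 1.88. Alternatives were both strands, DESeq2 1.42.0 size factors, total counts, other filters, leaving out the most abundant gene, a negative binomial test and single libraries.

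Named genes are the 3 members, the 3 genes nearest to each in log2(CPM + 1), the neighbours in mean level, the 4 highest sets with a shared mature sequence and the 4 most abundant genes of each list. The Mir138 genes, Mir103-1, Mir107 and the muscle genes are further examples, named after their values were seen. The members and lists were chosen with earlier results of these data known.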

Additional observations from a re-analysis of the deposited data

How the results depend on the processing

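The 3 log2 ratios between the libraries kept their sign under all alternatives run, from -0.36 to -0.27 for Mir26b, from -0.55 to -0.47 for Mir26a-2 and from -0.22 to -0.14 for Mir26a-1 in the binomial test. When each library had to reach 100 counts, neither Mir26a gene was tested. Under the negative binomial test Mir26b (-0.34) and Mir26a-2 (-0.54) were no longer called, both with an adjusted exact p of 1, and 1 gene was called in all. That test takes its spread from the difference it tests, so this says nothing about stability. With both strands counted, Mir26b was at 51297 CPM, Mir26a-1 at 12.5 and the family share at 5.14%; the Mir26 counts themselves were the same and the total was larger. Per 1000000 of all reads in the tables, Mir26b had 15592, Mir26a-2 19.2 and Mir26a-1 3.81. The ratios between members cannot change with the strand choice, as no Mir26 count lay on the opposite strand, and with 2 libraries leaving 1 out only returns the value of the other. The ratio between libraries has no value with 1 library. For the Mir26a genes, reads that match both loci are tallied apart from the gene counts whatever the depth, and 42 and 18 counts limit the precision for Mir26a-1.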
